A study of Mus musculus with 6 samples.

Results

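The RNA of 38 cell cycle and DNA replication genes was compared between intestinal adenomas of mice with 2 truncating alleles of the tumour suppressor gene Apc. The genes were taken by name, and each was found by its Ensembl identifier in GENCODE M21 among the 34866 genes of the deposited count table. All 38 had counts high enough to be among the 16536 genes tested. Adenomas were excised from the intestines of C57BL/6J mice aged 100 to 120 days. The mice carried 1 wild-type copy of Apc beside either Apc1322T (Apc1322T/+) or ApcMin (ApcMin/+). There were 3 libraries of each genotype and no normal tissue among them. The Apc1322T protein is the longer truncation and keeps binding sites for β-catenin, which ApcMin lacks. A sample was typically a pool of several RNA extractions of 1 mouse, so that a library is the average of several adenomas. Whether the 3 libraries of a genotype came from 3 separate mice is not given in the labels, and the p-values then measure only the spread between these samples. The alleles are small changes within Apc that counts per gene do not show, so the counts offer no direct check of the genotype labels.

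A dividing cell passes through a fixed order of events that these genes serve. In G1, origin factors load the ring-shaped MCM helicase onto DNA, cyclin E and E2F then start S phase, and the polymerases copy the genome with the help of the sliding clamp PCNA and of enzymes that make deoxynucleotides. In G2 and mitosis, cyclins A and B with CDK1, the Polo and Aurora kinases, spindle motors and kinetochore proteins serve to separate the chromosomes. The anaphase-promoting complex destroys the cyclins during mitosis. In the healthy intestine such cells are found in the crypts, and cells that have lost Apc keep dividing where their neighbours differentiate. E2F factors are the best known activators of the replication genes, whereas many mitotic genes carry a cell cycle homology region (CHR, bound by the MuvB complex) and CCAAT boxes (bound by NF-Y) at their start.

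By role, the 38 genes comprise 7 mitotic cyclins and kinases, 4 genes of the spindle checkpoint and the anaphase-promoting complex, 10 genes of the spindle, kinetochore and chromosome structure, 9 genes of replication licensing and the helicase, 4 genes of the replication fork and nucleotide supply, and 4 G1/S cyclins and transcription factors. The first 3 groups together are called the 21 mitotic genes below, and the next 2 the 13 replication genes. The last group is called the G1/S genes, though it also holds Foxm1, a transcription factor of the mitotic genes. The genes lie on 15 chromosomes, with 8 of them on chromosome 2.

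The promoters are shown first, because the genes share sequence features there that played no part in their choice. Promoter windows of 300 bases (250 before and 50 after the start of a transcript, RefSeq on GRCm38.p6) were at hand for 31 of the 38 genes, as 32 windows; those of Ccna2, Ccne2, Tpx2, Foxm1, Mcm4, Aurkb and Gins2 were not used here. The windows are shown for the mitotic and the replication genes with the smallest unadjusted p between genotypes, up to 3 of each, 5′ to 3′ along the strand of the gene. Capitals mark a CHR, whose letters are TTTGAA in the direction of the gene and TTCAAA where it lies on the other strand. They also mark a CCAAT box, which reads ATTGG on the other strand. The E2F site was searched in 4 forms on both strands, of which the first was TTGGCGC, the next was TTCCCGC, another was TTCGCGC, and the last was TTGCCGC.
Birc5, chr11:117848987-117849286, plus strand: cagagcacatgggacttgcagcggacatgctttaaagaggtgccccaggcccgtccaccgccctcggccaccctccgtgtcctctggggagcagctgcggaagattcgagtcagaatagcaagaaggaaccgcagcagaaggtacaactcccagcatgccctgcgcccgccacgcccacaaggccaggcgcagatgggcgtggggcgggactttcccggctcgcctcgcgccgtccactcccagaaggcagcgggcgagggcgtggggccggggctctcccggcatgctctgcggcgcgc
Aurka, chr2:172370521-172370820, minus strand: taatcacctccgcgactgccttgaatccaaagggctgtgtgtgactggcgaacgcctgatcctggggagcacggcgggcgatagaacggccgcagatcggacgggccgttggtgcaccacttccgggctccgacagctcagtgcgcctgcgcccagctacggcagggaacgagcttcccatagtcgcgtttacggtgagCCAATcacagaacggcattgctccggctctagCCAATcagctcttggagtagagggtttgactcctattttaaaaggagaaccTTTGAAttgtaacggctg
Plk1, chr7:122159185-122159484, plus strand: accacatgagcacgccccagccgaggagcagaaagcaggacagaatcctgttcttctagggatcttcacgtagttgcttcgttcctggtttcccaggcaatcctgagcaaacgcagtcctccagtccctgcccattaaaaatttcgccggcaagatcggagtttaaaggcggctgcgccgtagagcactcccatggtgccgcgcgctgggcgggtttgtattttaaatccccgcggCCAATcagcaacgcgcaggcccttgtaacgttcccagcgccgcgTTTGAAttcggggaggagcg
Cdc6, chr11:98907901-98908200, plus strand: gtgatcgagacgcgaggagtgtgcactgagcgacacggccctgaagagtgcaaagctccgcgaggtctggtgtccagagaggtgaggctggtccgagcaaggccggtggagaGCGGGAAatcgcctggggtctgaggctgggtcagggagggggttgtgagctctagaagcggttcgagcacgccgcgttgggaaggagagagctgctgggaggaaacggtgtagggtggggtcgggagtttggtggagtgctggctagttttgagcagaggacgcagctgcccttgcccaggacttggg
Pcna, chr2:132253131-132253430, minus strand: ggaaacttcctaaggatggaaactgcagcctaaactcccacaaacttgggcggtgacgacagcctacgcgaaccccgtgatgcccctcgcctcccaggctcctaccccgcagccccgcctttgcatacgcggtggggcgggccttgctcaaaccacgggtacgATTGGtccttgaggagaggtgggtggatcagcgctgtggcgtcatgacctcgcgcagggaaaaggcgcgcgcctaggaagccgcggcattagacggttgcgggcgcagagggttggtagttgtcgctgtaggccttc

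These 5 windows already differ in kind. With the first transcribed base as position 0, those of Aurka and Plk1 hold a CHR at positions 32 and 30, with the nearest CCAAT box at positions -19 and -14. The window of Cdc6 holds a single E2F match at position -138, that of Pcna a single CCAAT box at position -87, and that of Birc5 no match to any of the 3 motifs.

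Over all windows, the CHR was mostly found at mitotic genes and the E2F site at replication genes. A CHR was present in 72.2% of the 18 windows of mitotic genes (13 windows) and in 8.33% of the 12 windows of replication genes (1 window, of Mcm2), against 17.9% of all 32851 windows. An E2F match was present in 16.7% of the mitotic windows (3) and 75.0% of the replication windows (9), against 9.57% of all windows. The CCAAT box did not divide them, with 88.9% and 75.0% of the windows against 37.4% overall. The reverse of 1 E2F form (GCGCCAA) can share 4 bases with a CCAAT box, so both motifs are not fully separate counts. The windows of the G1/S genes at hand, those of Ccne1 and E2f1, held none of the 3 motifs. Some windows are set on a start downstream of the outermost 5′ end of the gene in GENCODE M21, by 466 bases for E2f1, 350 for Cdc6, 134 for Pcna, 109 for Cenpa, and 539 and 1156 for Mcm7. For these genes the matches, or their absence, describe the annotated RefSeq start alone. With only the 250 bases before the start, the CHR share fell to 38.9% of the mitotic windows and 16.0% of all windows, since many CHRs lie just after the start.

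In 10 of the 18 mitotic windows (55.6%) a CCAAT box began within 60 bases 5′ of a CHR, which held for 1.92% of all windows and for 0 of the 12 replication windows. For each window the pair with the shortest distance was taken, and the first bases of its motifs lay 9 bases (Cdk1 and Kif23) to 51 bases (Aurka) apart. Some windows hold more than 1 such pair, as that of Cdk1 has another CCAAT box at position -48 before a CHR at -15, and that of Top2a has CCAAT boxes at -78 and -58 before a CHR at -23. The stretches of the closest pairs, chosen after the positions were seen and without Aurka and Plk1 shown above, run from 4 bases before the CCAAT box to 4 bases after the CHR.
Ccnb2, chr9:70421541-70421579, minus strand: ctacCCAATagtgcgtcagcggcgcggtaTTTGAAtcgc
Cdc20, chr4:118437352-118437400, minus strand: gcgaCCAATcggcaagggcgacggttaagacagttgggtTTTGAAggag
Cdk1, chr10:69352974-69352996, minus strand: tctgATTGGctccTTTGAAcgtc
Kif11, chr19:37376333-37376372, plus strand: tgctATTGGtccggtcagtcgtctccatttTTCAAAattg
Kif23, chr9:61946788-61946810, minus strand: gctgATTGGcctgTTTGAAatgc
Mki67, chr7:135716486-135716524, minus strand: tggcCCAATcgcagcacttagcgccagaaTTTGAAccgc
Top2a, chr11:99024359-99024382, minus strand: tgctATTGGtccatTTTGAAgatt
Ube2c, chr2:164769868-164769909, plus strand: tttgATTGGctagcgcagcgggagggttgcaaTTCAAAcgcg

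For the MCM subunits with an E2F match, the match nearest to the start is shown with 10 bases on each side. Mcm7 has 2 annotated starts. In Mcm5 and in the second stretch of Mcm7, 2 forms of the site overlap, and the first capitals of Mcm5 are the end of another match. A motif match is a description of the letters and not evidence of binding.
Mcm3, chr1:20820277-20820303, minus strand: aacttccgtgGCGGGAAaacttgggaa
Mcm5, chr8:75109350-75109376, plus strand: AAgaactTTCGCGCCAAaacgtccagc
Mcm6, chr1:128359665-128359691, minus strand: ccggaggcgcGCGCGAAgtggcagcgc
Mcm7, chr5:138171363-138171389, minus strand: cgctagcgaaTTCCCGCgtccactgga
Mcm7, chr5:138171850-138171876, minus strand: gtgacgacgtTTCGCGCCAAtttcggt

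**Figure D1:**
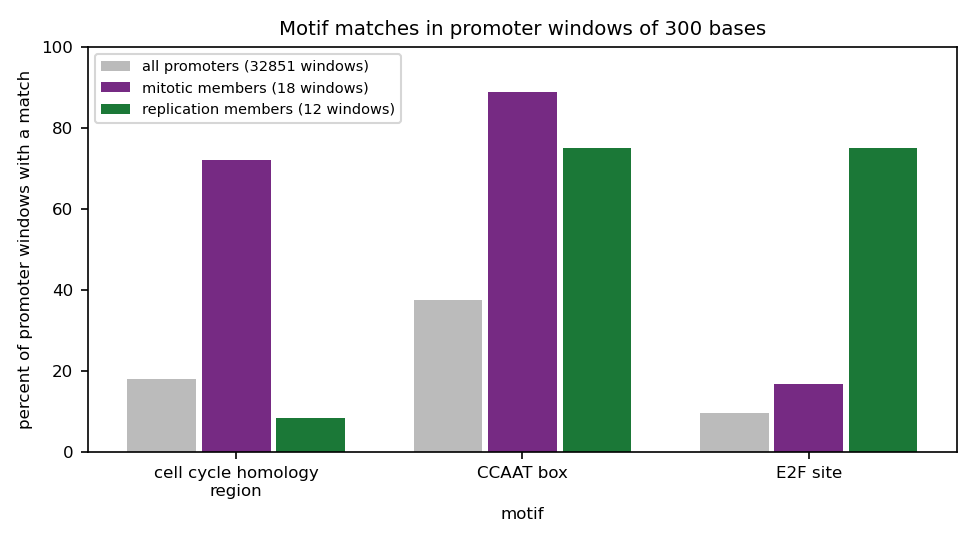
Percent of promoter windows of 300 bases (vertical axis) that hold a cell cycle homology region, a CCAAT box or an E2F site, for all promoters (grey, 32851 windows), mitotic genes (purple, 18 windows) and replication genes (green, 12 windows). The cell cycle homology region is found in 72.2% of mitotic and 8.33% of replication windows, the E2F site in 16.7% and 75.0%.

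All of these genes were well covered by reads. The estimated counts summed to between 23132461 and 33518324 per library, and a gene with 3 counts had at most 0.130 CPM. CPM are counts scaled to a common library size, here with TMM factors. The 38 genes had between 261 and 9344 counts in a library, or 11.9 to 314 CPM. Some libraries stood closer to the other genotype than to their own. Over all genes tested, Apc1322T replicate 1 had its highest Spearman correlation with ApcMin replicate 3 (0.982) and lower ones with the other Apc1322T libraries (0.976 with replicate 2, 0.976 with replicate 3). Its correlations with ApcMin replicates 1 and 2 (0.9804 and 0.9771) were also above those. ApcMin replicate 2 had its highest correlation with Apc1322T replicate 3 (0.9823, against 0.9817 with ApcMin replicate 1). Counts over the genes are therefore also given without Apc1322T replicate 1 and ApcMin replicate 3. This alternative was chosen after the data were seen and does not remove all of this mixing.

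No difference between genotypes was detected for any of the 38 genes. In edgeR's quasi-likelihood test 0 of them had an adjusted p under 0.01 and 0 an unadjusted p under 0.05, where the shares over all 16536 genes were 0% and 15.1%. DESeq2's Wald test likewise called 0 of the 38 at an adjusted p under 0.01 (1.11% of 17503 genes) and 0 at an unadjusted p under 0.05 (16.7%). The smallest adjusted p among them was 0.331 in edgeR and 0.353 in DESeq2, both for Birc5. On the log2 scale, 13 genes had a higher and 25 a lower fitted value in ApcMin, with a median log2 fold change (ApcMin over Apc1322T) of -0.03, against 47.6% lower and a median of 0.02 over all genes. The log2 fold changes ran from -0.23 (Birc5) to 0.27 (Rrm2).

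The direction of so small a shift rested on the scaling. By differences of mean log2 CPM, 14 genes were higher and 24 lower under TMM, 11 and 27 under DESeq2's size factors, and 35 and 3 when counts were scaled to the library totals alone. That last scaling moved the median of all genes to 0.18, and the median of the 38 genes to 0.14. The median of the 38 genes lay below that of all genes under each of the 3 scalings. A scaling moves all genes of a library alike, so this agreement was fixed in advance and adds no support.

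The sizes of the differences were small against those of other genes. All 38 genes had an absolute log2 fold change under 0.3, against 61.9% of the genes tested, and 25 had one under 0.1, against 26.9%. The median absolute log2 fold change was 0.060 for the 38 genes and 0.21 for all genes. For 37 of the 38 genes the 95% confidence interval lay within a 1.5-fold change either way, which held for 43.5% of all genes. The exception was Rrm2. These genes were also more highly counted than most, with a median level of 5.76 log2 CPM against 4.22. More highly counted genes have less counting noise, and so narrower intervals and smaller fold changes from noise alone. The part of this in the small differences was not tested.

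**Figure D2:**
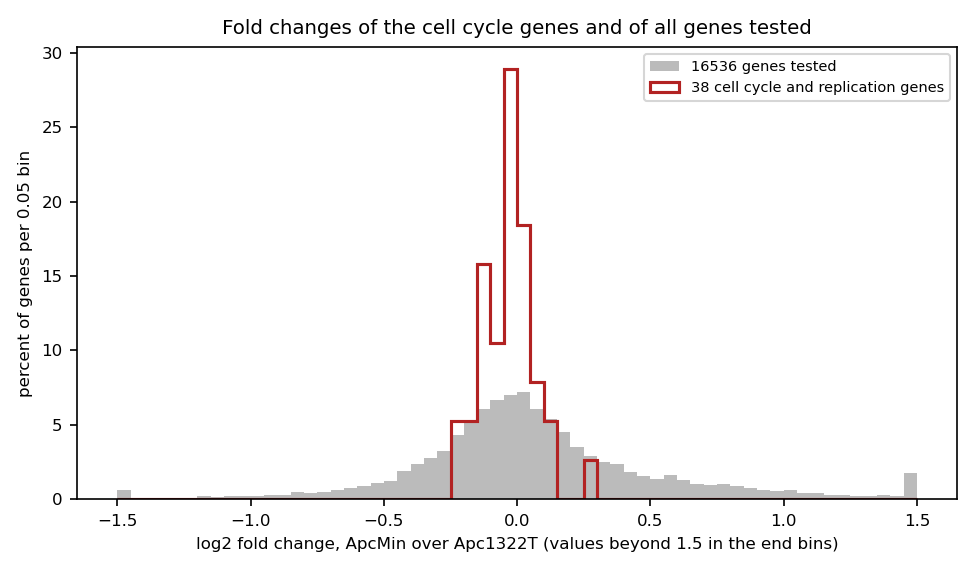
Distribution of the log2 fold change (ApcMin over Apc1322T, horizontal axis) in bins of 0.05, as percent of genes (vertical axis), for all 16536 genes tested (grey) and the 38 cell cycle and replication genes (red outline). The 38 genes lie between -0.23 and 0.27, while the genes tested spread well past both ends.

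The spread across all 6 libraries was narrow as well. The ratio of the highest to the lowest library had a median of 1.26 for the 38 genes and of 1.56 for the 16332 genes with no library at 0. It was under 1.5 for 36 of the 38 genes (45.2% of genes), the others being Pcna with 1.53 and Rrm2 with 2.32. Within a genotype, the standard deviation of log2 CPM had a median of 0.13 for the 38 genes and 0.22 for all genes tested. The higher counts of the 38 genes (median 5.76 against 4.22 log2 CPM) also lower such spreads. Their part in the narrow spread was not tested.

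**Figure D3:**
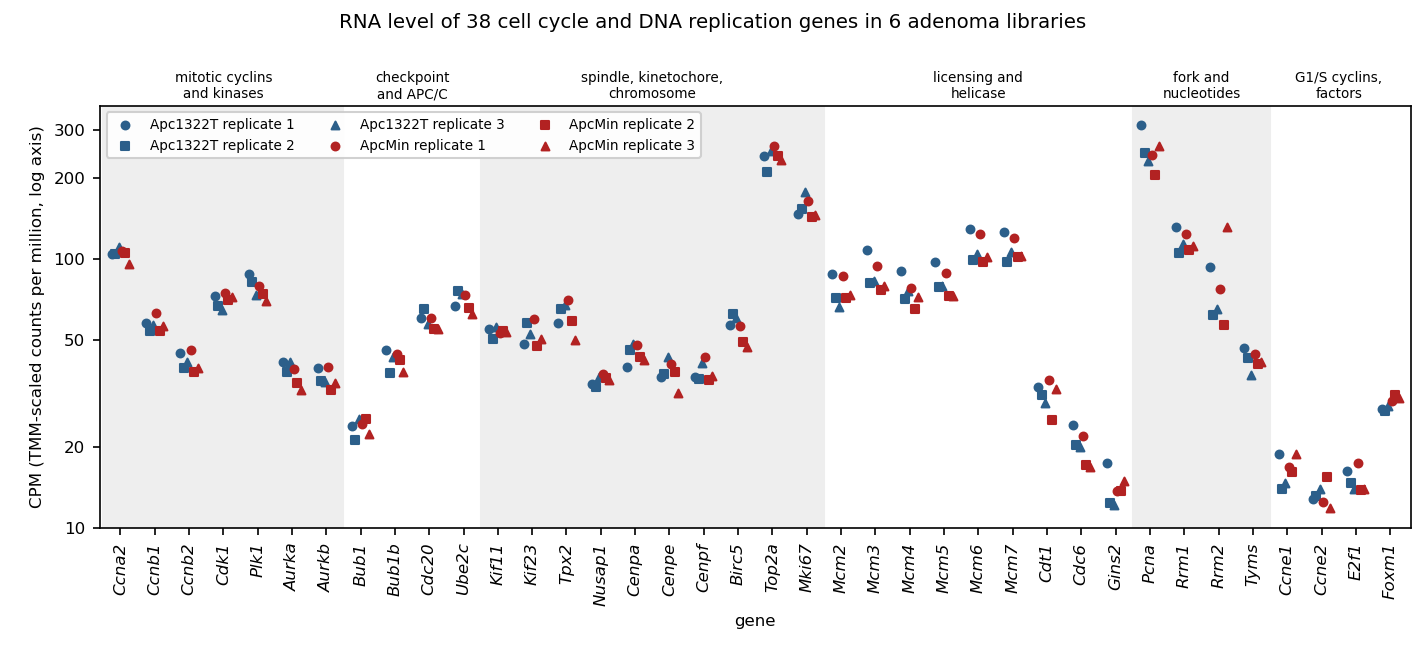
RNA level (TMM-scaled CPM, log axis) of each of the 38 genes, ordered by role, in the 3 Apc1322T libraries (blue) and the 3 ApcMin libraries (red), with circles, squares and triangles for replicates 1, 2 and 3. The colours mix at nearly every gene, and the widest scatter is that of Rrm2, from 56.5 to 131 CPM.

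Among the mitotic cyclins and kinases, 2 genes had a higher and 5 a lower fitted value in ApcMin, with a median log2 fold change of -0.04. Cdk1, the kinase that drives entry into mitosis (chromosome 10, 69335146 to 69352938), had 72.4, 66.6 and 64.2 CPM in Apc1322T replicates 1 to 3 and 74.7, 70.3 and 72.0 CPM in ApcMin replicates 1 to 3. The groups overlapped, as Apc1322T replicate 1 lay above 2 of the ApcMin libraries, and the log2 fold change was 0.10 (standard error, SE, of 0.082, and 0.578 as edgeR's adjusted p). Aurka, which encodes Aurora A, the kinase of the spindle poles (chromosome 2, 172356190 to 172370535), had 41.3, 37.9 and 41.2 CPM in Apc1322T and 38.8, 34.6 and 32.4 CPM in ApcMin. Only ApcMin replicate 1 reached into the Apc1322T range, and the log2 fold change was -0.19 (SE 0.098, and 0.395 as edgeR's adjusted p). The other genes of this role had log2 fold changes of -0.12 for the Polo kinase gene Plk1, -0.05 for Ccna2 (cyclin A2), -0.04 for Aurkb (Aurora B), -0.03 for Ccnb2 (cyclin B2) and 0.04 for Ccnb1 (cyclin B1), all with intervals that held 0.

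The genes of the spindle checkpoint and the anaphase-promoting complex had a median log2 fold change of -0.07. Ube2c, the ubiquitin-conjugating enzyme of that complex (chromosome 2, 164769898 to 164778822), had 66.7, 75.8 and 73.8 CPM in Apc1322T and 73.5, 65.6 and 62.1 CPM in ApcMin. Its log2 fold change was -0.10 (SE 0.098, and 0.617 as edgeR's adjusted p), and ApcMin replicate 1 lay above Apc1322T replicate 1. Cdc20, an activator of the complex, had a log2 fold change of -0.11, and the checkpoint kinase genes Bub1b and Bub1 had -0.03 and 0.03.

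Birc5 had the smallest p of the 38 genes. It encodes survivin, a subunit of the chromosomal passenger complex, and lies on chromosome 11 from 117849251 to 117855743. Its CPM were 56.6, 62.5 and 60.0 in Apc1322T (59.7 ± 3.00, SD, n = 3) and 56.3, 49.2 and 46.8 in ApcMin (50.8 ± 4.90, SD, n = 3). The 3 ApcMin libraries lay below the 3 Apc1322T libraries, but the gap between the nearest libraries was 56.6 against 56.3 CPM. The fold change was 0.851 (95% confidence interval 0.723 to 1.00), and the adjusted p was 0.331 in edgeR's test (0.0506 before adjustment).

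Top2a, topoisomerase II alpha, which untangles replicated chromosomes, and Mki67, the gene of the proliferation marker Ki-67, are widely used as markers of dividing cells. Top2a (chromosome 11, 98992943 to 99024189) had 241, 210 and 250 CPM in Apc1322T and 261, 240 and 232 CPM in ApcMin. Both groups spanned much the same range, and the log2 fold change was 0.07 (SE 0.10, and 0.770 as edgeR's adjusted p). Mki67 had 146, 153 and 176 CPM in Apc1322T and 163, 143 and 145 CPM in ApcMin, with a log2 fold change of -0.07. Of the remaining genes of this role, the spindle genes had log2 fold changes of -0.09 (Tpx2, a spindle assembly factor), -0.01 (Kif11, the bipolar spindle motor), -0.01 (Kif23, a motor of the cleavage furrow) and 0.07 (Nusap1, which binds spindle microtubules). The centromere genes Cenpe, Cenpa and Cenpf had -0.09, 0.00 and 0.03. The median of the 10 genes of this role was -0.01.

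Of the 9 licensing and helicase genes, 7 had a lower and 2 a higher fitted value in ApcMin, with a median log2 fold change of -0.05. Cdc6, which recruits the helicase to origins (chromosome 11, 98907801 to 98923940), had 24.1, 20.3 and 19.9 CPM in Apc1322T and 21.9, 17.2 and 16.8 CPM in ApcMin. In both genotypes replicate 1 was the highest, the groups overlapped, and the log2 fold change was -0.20 (SE 0.15, and 0.513 as edgeR's adjusted p). Cdt1, its partner in loading, had a log2 fold change of 0.00 and Gins2, a subunit of the active helicase, one of 0.01.

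All 6 subunits of the MCM ring had their highest level in replicate 1 in both genotypes. Mcm4 (chromosome 16, 15623897 to 15637400) had 90.3, 70.9 and 75.9 CPM in Apc1322T and 77.6, 65.2 and 72.3 CPM in ApcMin, a log2 fold change of -0.14 (SE 0.12, and 0.576 as edgeR's adjusted p). Mcm6 (chromosome 1, 128331590 to 128359664) had 129, 98.9 and 104 CPM in Apc1322T and 123, 96.8 and 101 CPM in ApcMin, a log2 fold change of -0.05 (SE 0.14, and 0.885 as edgeR's adjusted p). For both genes the groups overlapped, since ApcMin replicate 1 lay above Apc1322T replicates 2 and 3. The log2 fold changes of Mcm3, Mcm5, Mcm7 and Mcm2 were -0.12, -0.12, -0.03 and 0.03. Per kilobase of transcript, the 6 subunits had mean levels of 21.0 (Mcm4), 22.5 (Mcm2), 24.1 (Mcm5), 28.7 (Mcm3), 36.6 (Mcm7) and 37.4 (Mcm6) CPM per kb. The ranges over libraries of Mcm7 (32.8 to 42.4) and Mcm6 (33.2 to 44.2) overlapped, as did those of Mcm4, Mcm2 and Mcm5.

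Pcna was the most abundant of the 38 genes per kilobase, with 164 CPM per kb on average and 135 to 207 over the libraries. Ube2c (72.0), Birc5 (58.3), Top2a (45.7) and Mcm6 (37.4) followed, and the lowest were E2f1 (5.49), Cenpe (4.79), Ccne2 (4.42), Gins2 (3.62) and Cenpf (3.42). Pcna encodes the sliding clamp of the DNA polymerases and lies on chromosome 2 from 132249162 to 132253314. It had 314, 246 and 230 CPM in Apc1322T and 242, 205 and 261 CPM in ApcMin, so that Apc1322T replicate 1 stood above all others and the remaining libraries mixed. The log2 fold change was -0.16 (SE 0.15, and 0.623 as edgeR's adjusted p).

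Rrm2 varied most. It encodes the regulated subunit of ribonucleotide reductase, the enzyme that makes deoxynucleotides, and lies on chromosome 12 from 24708241 to 24714146. Its CPM were 93.3, 61.8 and 65.1 in Apc1322T and 77.4, 56.5 and 131 in ApcMin, where both the lowest and the highest of the 6 libraries were ApcMin libraries. The log2 fold change of 0.27 (SE 0.33, and 0.708 as edgeR's adjusted p) had an interval from -0.54 to 1.07, and without ApcMin replicate 3 it was -0.13. Its partner subunit Rrm1 did not share the high value, as it had 111 CPM in ApcMin replicate 3 within a range of 105 to 131 CPM and a log2 fold change of -0.03. Tyms, thymidylate synthase, had a log2 fold change of 0.00.

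The 4 G1/S genes, Foxm1 included, had log2 fold changes from 0.01 (Ccne2 and E2f1) to 0.13 (Foxm1). Their levels ran from 4.42 CPM per kb for Ccne2 to 8.27 CPM per kb for Ccne1. Foxm1, a transcription factor of the mitotic genes (chromosome 6, 128362967 to 128376146), had 27.7, 27.1 and 28.3 CPM in Apc1322T (27.7 ± 0.575, SD, n = 3) and 29.5, 31.3 and 30.4 CPM in ApcMin (30.4 ± 0.867, SD, n = 3). Its ApcMin libraries all lay above its Apc1322T libraries, with a fold change of 1.10 (95% confidence interval 0.962 to 1.25) and an adjusted p of 0.434 in edgeR's test. Foxm1 shares exon bases with Tex52 on the same strand, and 50-base reads from there could have been divided between them. Ccne1, cyclin E1 (chromosome 7, 38097984 to 38107534), had 18.9, 13.9 and 14.7 CPM in Apc1322T and 16.8, 16.1 and 18.8 CPM in ApcMin. Apc1322T replicate 1 was the highest of all 6, and the log2 fold change was 0.12 (SE 0.15, and 0.716 as edgeR's adjusted p). Ccne2 (cyclin E2) and E2f1, the activator of S phase genes, each had 0.01, and their sign turned with DESeq2's size factors.

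Foxm1 and Birc5 were the 2 genes of the 38 whose libraries did not overlap between genotypes, where 21% of all genes tested did not overlap. Of these genes 11% had the ApcMin libraries above, as Foxm1 had, and 9.96% below, as Birc5 had. The share among the 38 genes was thus below the background.

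**Figure D4:**
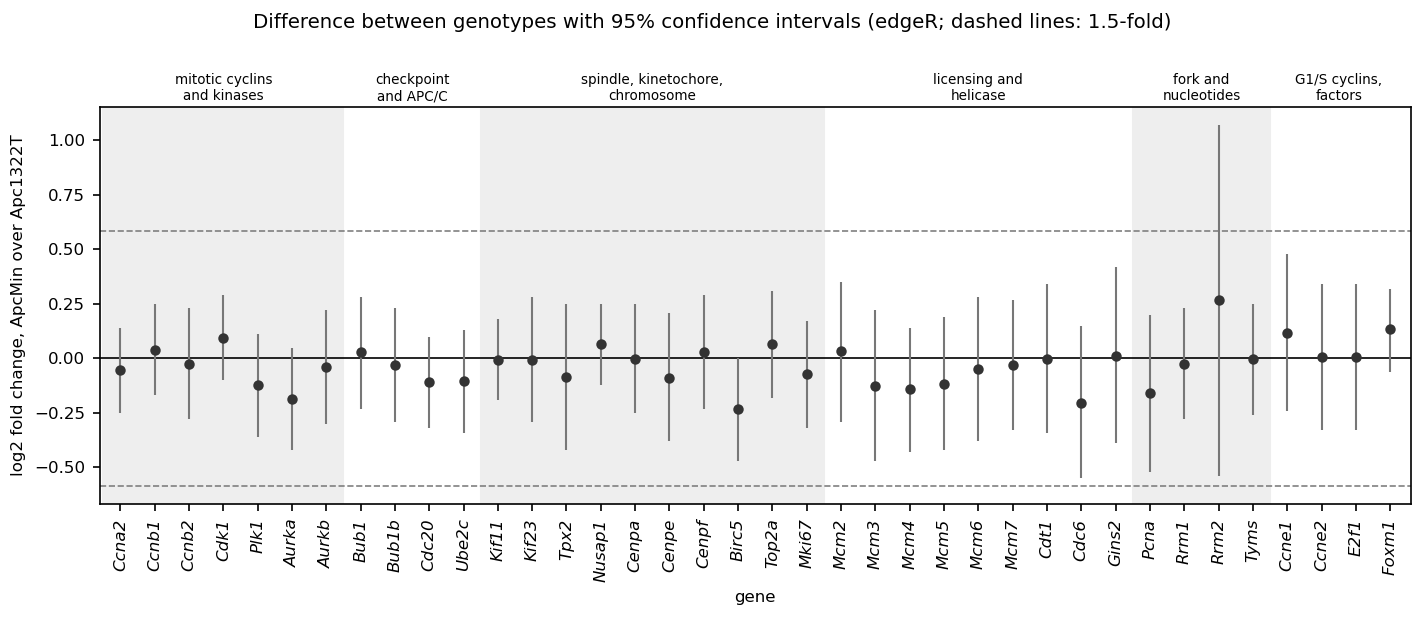
Log2 fold change (ApcMin over Apc1322T) of each of the 38 genes with its 95% confidence interval from edgeR's quasi-likelihood fit, ordered by role. Dashed lines mark a 1.5-fold change either way, and the interval of Rrm2 alone crosses one of them, reaching from -0.54 to 1.07.

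Libraries of 1 genotype differed from each other in a way that many of the genes shared. Apc1322T replicate 1 was the highest of the 6 libraries for 15 of the 38 genes, among them 8 of the 9 licensing and helicase genes and 3 of the 4 fork and nucleotide genes. Within Apc1322T, all 13 replication genes were higher in replicate 1 than in both other libraries, by a median of 0.31 on the log2 scale (1.24-fold, range 0.14 to 0.56). Marker lists differed in the same library: mean log2 CPM in Apc1322T replicates 1 to 3 was 9.25, 10.67 and 10.81 for enterocytes, 9.55, 9.81 and 9.84 for epithelium, and 6.72, 5.67 and 6.14 for stroma. Their part in the result was not tested. The 21 mitotic genes did not share this, with a median of -0.02, 7 of them above and 7 below both other libraries. In ApcMin replicate 1, by contrast, 10 of the 13 replication genes and 19 of the 21 mitotic genes were above both other ApcMin libraries, by medians of 0.24 and 0.17. There the stromal list was at 7.72, against 6.47 and 6.80 in ApcMin replicates 2 and 3, and the enterocyte list at 9.20, against 10.05 and 8.41. Genes that are co-regulated are not independent of each other, and these counts describe 1 library each, with no test.

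The balance of mitotic to replication RNA varied between libraries, with like means in both genotypes. The mean log2 CPM of the mitotic genes minus that of the replication genes was -0.44, -0.13 and -0.06 in Apc1322T replicates 1 to 3 and -0.21, -0.09 and -0.32 in ApcMin replicates 1 to 3. By genotype this was -0.21 ± 0.20 and -0.21 ± 0.12 (SD, n = 3 each). The lowest values were those of Apc1322T replicate 1 and ApcMin replicate 3 (-0.44 and -0.32). Without both, 24 of the 38 genes had a higher fitted value in ApcMin, 0 had an adjusted p under 0.01 in edgeR's test, and 0 an unadjusted p under 0.05 (21.7% of genes).

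**Figure D5:**
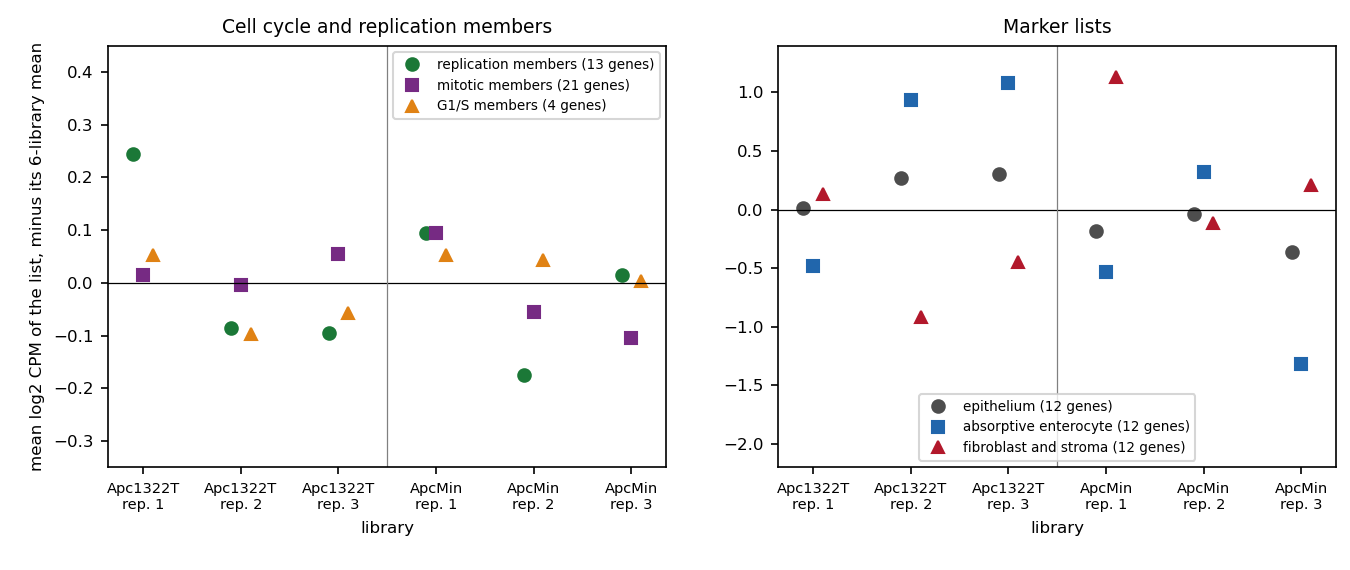
Mean log2 CPM of each list in each library minus the list's mean over the 6 libraries. On the left are replication genes (green circles), mitotic genes (purple squares) and G1/S genes (orange triangles, Foxm1 included). On the right are markers of epithelium (grey circles), absorptive enterocytes (blue squares) and fibroblasts and stroma (red triangles). The vertical scales differ, as the cell cycle lists stay within about 0.3 log2, with Apc1322T replicate 1 high for the replication genes, while the enterocyte and stromal lists span over 1 log2.

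Markers of the cells in the adenomas moved more than the cell cycle genes did. All 12 epithelial markers had lower fitted values in ApcMin, by a median log2 fold change of -0.37, and their summed level was 15672 to 19084 CPM in Apc1322T and 12668 to 14900 CPM in ApcMin, without overlap. These values rest on TMM, and scaling to library totals alone moved the median of all genes from 0.02 to 0.18. The smallest of the epithelial changes were those of Krt18 (-0.08) and Cdx1 (-0.11), so their sign depends on the scaling. Of the epithelial markers 8 were lower at an unadjusted p under 0.05 (7.6% of all genes were lower and 7.49% higher at that level) and 0 at an adjusted p under 0.01 in edgeR's test. Epcam, an adhesion molecule of epithelial cells, was between 2637 and 2723 CPM in Apc1322T and between 1799 and 2226 CPM in ApcMin, and was thus abundant in every library. The 12 absorptive enterocyte markers were also lower in ApcMin in each case (median -0.84, summed 18560 to 33776 CPM against 11656 to 23736, 2 at an unadjusted p under 0.05).

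Markers of stromal, muscle, vascular and immune cells had mostly higher fitted values in ApcMin. This held for 12 of 12 fibroblast and stromal markers (median 0.89, summed 1011 to 2326 CPM in Apc1322T and 1605 to 4856 in ApcMin), 8 of 8 smooth muscle markers (0.69, 131 to 267 against 286 to 421 CPM) and 6 of 6 endothelial markers (0.51, 101 to 162 against 155 to 233 CPM). It also held for 8 of 10 leukocyte markers tested (0.59, 112 to 140 against 124 to 392 CPM) and 4 of 6 plasma cell markers (0.14, 956 to 1159 against 836 to 1548 CPM). The lower leukocyte markers were Cd3e and Cd8a, and the summed leukocyte level was 392, 124 and 159 CPM in ApcMin replicates 1 to 3. Of these sums, Lyz2 alone made up 260, 50.4 and 68.0 CPM. The summed plasma cell level was 925, 836 and 1548 CPM in ApcMin replicates 1 to 3, so that only replicate 3 lay above the Apc1322T range. That sum rests on few genes: Jchain had 896 CPM in ApcMin replicate 3. Over all libraries, Sdc1 had 338 to 465 CPM and Xbp1 had 186 to 235 CPM. Markers of squamous epithelium, a lining that the intestine lacks, were at low levels and went against the other epithelial lists, with 8 of 9 tested higher in ApcMin (1.32, 12.0 to 13.7 against 40.5 to 55.4 CPM). In bulk RNA, fewer cells of a type and less RNA per cell cannot be told apart.

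Set against the epithelial markers, the 38 genes stood higher in ApcMin. Their mean log2 CPM minus that of the epithelial markers was -3.74, -4.14 and -4.13 in Apc1322T (-4.00 ± 0.23, SD, n = 3) and -3.56, -3.88 and -3.52 in ApcMin (-3.65 ± 0.20, SD, n = 3), and the groups overlapped. The mean log2 CPM of the epithelial markers differed by -0.384 (ApcMin minus Apc1322T) and that of the 38 genes by -0.031. The difference in this ratio thus lay mostly in the markers. Their log2 fold changes ran from -0.81 (Krt20) to -0.08 (Krt18), so its size depends on the markers chosen. The 38 genes are expressed by any dividing cell, stromal cells included, and the part of the cell makeup in this ratio was not tested.

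The wider cell cycle lists held 105 more genes, all tested, of which 42 had a higher and 63 a lower fitted value in ApcMin, with a median log2 fold change of -0.03. None had an adjusted p under 0.01 in edgeR's test (the background was 0%), and 2 had an unadjusted p under 0.05 (15.1% of all genes). Both were mitotic genes lower in ApcMin. They were Cdc25b, the phosphatase that activates CDK1 (log2 fold change -0.26, edgeR's adjusted p = 0.308), and Nek2, a centrosomal kinase (-0.22, edgeR's adjusted p = 0.311). Cdc25b had 40.6, 45.4 and 41.7 CPM in Apc1322T and 38.7, 33.7 and 34.2 CPM in ApcMin. Nek2 had 42.8, 42.0 and 46.8 CPM in Apc1322T and 38.1, 37.6 and 37.3 CPM in ApcMin. For both genes all ApcMin libraries were the lower ones.

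Of the 36 further genes of the replication machinery, 15 had a higher and 21 a lower fitted value in ApcMin, 0 of them at an unadjusted p under 0.05. Among the outermost log2 fold changes were -0.22 for Fen1 (the flap endonuclease), and 0.22 for Pola1 and 0.21 for Pole, catalytic subunits of DNA polymerases. Among the 51 further mitotic genes, 19 had a higher and 32 a lower fitted value, the highest being Hjurp (0.15, the chaperone of the centromeric histone Cenpa) and Kif18a (0.15, a motor of chromosome alignment). Among 18 regulators of the E2F, Rb and MuvB families, 8 had a higher and 10 a lower fitted value and 0 an unadjusted p under 0.05. The outermost were Rbl2 (-0.20, an Rb relative), E2f8 (-0.19, a repressing E2F), Rbbp4 (0.14) and Lin9 (0.14), both MuvB subunits.

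Genes with and without a promoter motif had like fold changes. The median log2 fold change was -0.02 for the 14 genes with a CHR and -0.03 for the 17 without, and -0.03 for the 11 genes with an E2F match and -0.01 for the 20 without. Some counts rest on how reads were divided: exons of Ccna2, Ccne2, Cdc20, Gins2, Nusap1, Ube2c, Mcm7 and Plk1 overlap those of a gene on the opposite strand, which the stranded libraries keep apart if counted by strand, and those of Mcm7 and Top2a hold small RNA genes. Ccnb1, Ccnb2, Pcna and Tyms have named pseudogenes in the table that could take some of their reads.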

How the data were processed

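Poly(A) RNA of intestinal adenomas was sequenced as stranded single-end reads of 50 bases, with 3 libraries of ApcMin and 3 of Apc1322T, grouped by the sample labels. The authors quantified the reads with Salmon against the mouse transcriptome of GRCm38 (GRCm38.p6 in the submitters' processing notes, which also name DESeq2) and deposited estimated counts per gene, not normalized, of which 31.5% are not whole numbers. They were rounded. The 34582 of 34866 genes with a symbol in GENCODE M21 were named by it. Genes kept by filterByExpr (minimum count 10, minimum total 15) were scaled by TMM and tested with edgeR 4.0.16 in R 4.3.3 (quasi-likelihood, robust), with Benjamini-Hochberg adjustment over all genes tested and a threshold of 0.01. Each standard error was the fold change over the root of F. A prior count of 2 was used for log2 CPM. Levels per kilobase used the longest principal transcript. Alternatives used DESeq2 1.42.0 and limma 3.58.1 (voom), other scalings and filters, the replicate number as a block, and each library left out. Tables were handled with Python 3.11.15 and pandas 2.3.3. The procedure was tested on simulated data. Depth limits for 3 counts cover counting error only.

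The 38 genes, the other gene lists and the marker lists were chosen with earlier results of these data known, and lists are described by counts and medians with no test. All 38 genes are named. Values in each library are given for the 5 with the largest and the 5 with the smallest log2 fold change, the 5 with the highest level per kilobase, and those whose libraries do not overlap; Mki67 and Rrm1 were added after their values were seen. Of each other list, the 2 outermost genes on either side and any past the threshold are named, except 1 gene that is not reported here; Epcam was added after its values were seen. Promoters, printed for up to 3 mitotic and 3 replication genes of smallest unadjusted p, are RefSeq sequences on GRCm38.p6, and motifs were matched exactly on both strands.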

Additional observations from a re-analysis of the deposited data

How the results depend on the processing

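In the counts over all 16536 genes, 0 had an adjusted p under 0.01 in edgeR's test, 1 under 0.05, 1 under 0.01 with no filter on low counts, 194 in DESeq2's Wald test, and 0 to 1 with libraries left out. Of the 38 cell cycle genes, 0 passed an adjusted p of 0.01 under any alternative run. At an unadjusted p under 0.05 there was 1 with DESeq2's size factors (Birc5). With libraries left out there were 0 to 3 at that level, the 3 without ApcMin replicate 1 (Aurka, Birc5 and Cdc6). The share over all genes at that level without ApcMin replicate 1 is not given here. Of the other cell cycle lists, 0 to 6 genes passed that level with libraries left out (6 without Apc1322T replicate 1, where 24.4% of all genes did, and 0 without Apc1322T replicate 3, ApcMin replicate 2 or ApcMin replicate 3). Genes with a higher fitted value in ApcMin were 9 to 24 (9 without Apc1322T replicate 2 or ApcMin replicate 1, 22 without Apc1322T replicate 1, 20 without ApcMin replicate 2, 19 without ApcMin replicate 3, and 24 without both Apc1322T replicate 1 and ApcMin replicate 3). Of the 38 genes, 5 did not overlap with library totals, where 24.6% of all genes did not. With libraries left out, 2 to 11 did not overlap (11 without ApcMin replicate 1 and 7 without Apc1322T replicate 1). Fewer libraries overlap less by construction, and the shares over all genes are not given here, so these counts cannot be read as a result. The cause of the other changes was not tested.

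With libraries left out, the median log2 fold change ran from -0.109 to 0.054 for all 38 genes, -0.114 to 0.083 for replication genes, -0.112 to 0.005 for mitotic genes, -0.113 to 0.047 for mitotic cyclins and kinases, -0.117 to 0.005 for checkpoint genes, -0.087 to 0.025 for spindle genes, -0.159 to 0.062 for licensing genes, -0.071 to 0.087 for fork genes and 0.014 to 0.137 for G1/S genes. Single genes ran from -0.113 to 0.062 for Ccnb2, -0.126 to 0.047 for Aurkb, -0.103 to 0.101 for Bub1b, -0.051 to 0.017 for Kif11, -0.221 to 0.062 for Mcm3, -0.219 to 0.047 for Mcm5, -0.159 to 0.119 for Mcm6, -0.114 to 0.126 for Mcm7, -0.106 to 0.127 for Cdt1, -0.093 to 0.09 for Rrm1, -0.09 to 0.092 for Tyms, -0.116 to 0.078 for Ccne2, -0.041 to 0.096 for Bub1, -0.112 to 0.061 for Kif23, -0.073 to 0.057 for Cenpa, -0.062 to 0.094 for Cenpf, -0.004 to 0.129 for Top2a, -0.055 to 0.203 for Mcm2, -0.082 to 0.207 for Gins2, -0.115 to 0.134 for E2f1, -0.134 to 0.007 for Mki67, -0.026 to 0.084 for Ccnb1, -0.222 to 0.028 for Tpx2, -0.169 to 0.005 for Cenpe and -0.133 to 0.505 for Rrm2. Against their sign with all libraries, DESeq2 gave Gins2 -0.006, Ccne2 -0.010 and E2f1 -0.006, and its size factors in edgeR gave Ccne2 -0.003 and E2f1 -0.001. The filter of 1 CPM gave Cenpa 0.005, Cdt1 0.003 and Tyms 0.004, limma-voom gave Cenpa 0.006, Tyms 0.001 and Ccne2 -0.015, and no filter gave Cenpa 0.002. Of 532 values of single genes under 14 alternatives, 454 kept the sign, and 13 genes kept it throughout.

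Same-numbered libraries did not deviate together (correlations of deviations -0.0139, 0.164 and -0.286), while those of differently numbered libraries ran from -0.359 to 0.329. No pairing by number was seen, but so few libraries cannot exclude one. With the replicate block, 0 of the 38 genes and 0 of the other lists had an unadjusted p under 0.05, 14 of the 38 were higher in ApcMin, and Cenpa was 0.001, Tyms 0.002 and Ccne2 -0.002. With only the bases before the start, a CHR was in 16.0%, a CCAAT box in 33.8%, an E2F match in 7.89% and both a CHR and a CCAAT box in 5.55% of all windows, in place of 17.9%, 37.4%, 9.57% and 6.95%. The CHR, alone or with a CCAAT box, was then in 25.0% of the windows of the 38 genes and 38.9% of those of mitotic genes. Each of the 38 genes had at least 261 counts in every library.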
